A study of Mus musculus with 10 samples.

Results

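Myosin light chains are small proteins that wrap around the neck of the myosin heavy chain, and their genes were examined here in C2C12, mouse myoblasts kept as a line and able to fuse into multinucleated muscle fibres. All 10 genes of the family set (Myl1, Mylpf, Myl4, Myl2, Myl3, Myl6, Myl6b, Myl9, Myl12a and Myl12b) were found by gene name among 34650 names on the array, with 13 of its 55681 probes. The study compared cells given a miR-142-3p mimic, a synthetic copy of that microRNA (6 labelled samples), with cells given a scrambled sequence (4 labelled samples). In both groups 150 nM of RNA was delivered with a lipid reagent to cells kept in growth medium with fetal bovine serum, about 60% of the cells were estimated to be transfected, and RNA was taken after 72 hours. The titles of the scramble samples alone carry a re-analysis remark that the labels do not explain. The file headers place the 10 scans on 5 positions of 1 slide, each scanned on 2 days, whereas the design text speaks of 6 and 4 independent repeats; the scans of a position were averaged to n = 3 mimic arrays and n = 2 scramble arrays. Signals are given as log2 of the scanner's processed signal minus the 75th percentile of the scan, so that a value of 0 is as bright as the 75th percentile. Each of these samples is a bulk culture, in which fewer expressing cells and less RNA per cell cannot be told apart.

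A myosin II motor carries a pair of essential light chains, which stiffen the neck, and a pair of regulatory light chains, whose phosphorylation switches on smooth muscle and non-muscle myosin. Striated muscle has its own forms of both kinds, which appear as myoblasts stop dividing and build sarcomeres. Smooth muscle and non-muscle cells use other forms in contraction, division and migration. The sequence that the mimic copies is shown because its seed defines the microRNA. RefSeq (build GRCm38.p6, chr11:87756903-87756925, plus strand) gives the mature mouse miR-142a-3p as follows, with seed bases 2 to 8 in capitals.
miR-142a-3p: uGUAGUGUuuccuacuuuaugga
The match to this seed, ACACTAC, occurs in 0 of the 13 light chain probes and in 0.259% of all 55681 probes. These windows are 60 bases long, and the remaining transcript sequence was not analysed here.

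A probe is called detected on a scan where the scanner software marked it well above background. This held for 25.4% to 34.6% of 59305 non-control spots per scan, and the 17455 probes detected on at least 4 of 10 scans were tested. Of these, 9.13% differed between mimic and scramble at an adjusted p below 0.05 (limma with Benjamini-Hochberg adjustment over all tested probes), with 4.02% lower and 5.11% higher. Myoblast markers were present: Cdh15, Des, Itga7 and Myod1 were detected on every scan, whereas Pax7 was detected on none. Scramble array 2 stood farther from the mimic arrays (r = 0.915 to 0.924 over probes) than scramble array 1 (r = 0.946 to 0.951).

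With the mimic, 6 of the 10 tested light chain probes were lower and none was higher, against 4.02% of all tested probes called lower. The groups did not overlap for 7 of the 10, all lower with the mimic, whereas 18.6% of all tested probes were lower without overlap, 24.1% higher and 42.8% either way. The 6 belonged to 5 genes: the striated muscle forms Myl1, Mylpf and Myl4, and Myl6b and Myl9 among the forms listed as non-muscle. The main non-muscle chains Myl6, Myl12a and Myl12b, with 4 probes, did not pass the test. The median log2 difference was −2.73 over the 4 tested probes of muscle forms and −0.24 over the 6 probes of non-muscle forms, against 0.06 over all tested probes. Those counts and medians describe only probes that passed the filter. The tested probe of Mylpf, detected on 2 of 6 mimic scans, and that of Myl6b, on 3 of 6, passed it only with their scramble scans. Their calls among the 6, and their places among the 7 without overlap, therefore support nothing further. Another 3 probes, those of Myl2 and Myl3 and the first probe of Mylpf, were detected on no scan and were not tested.

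**Figure D1:**
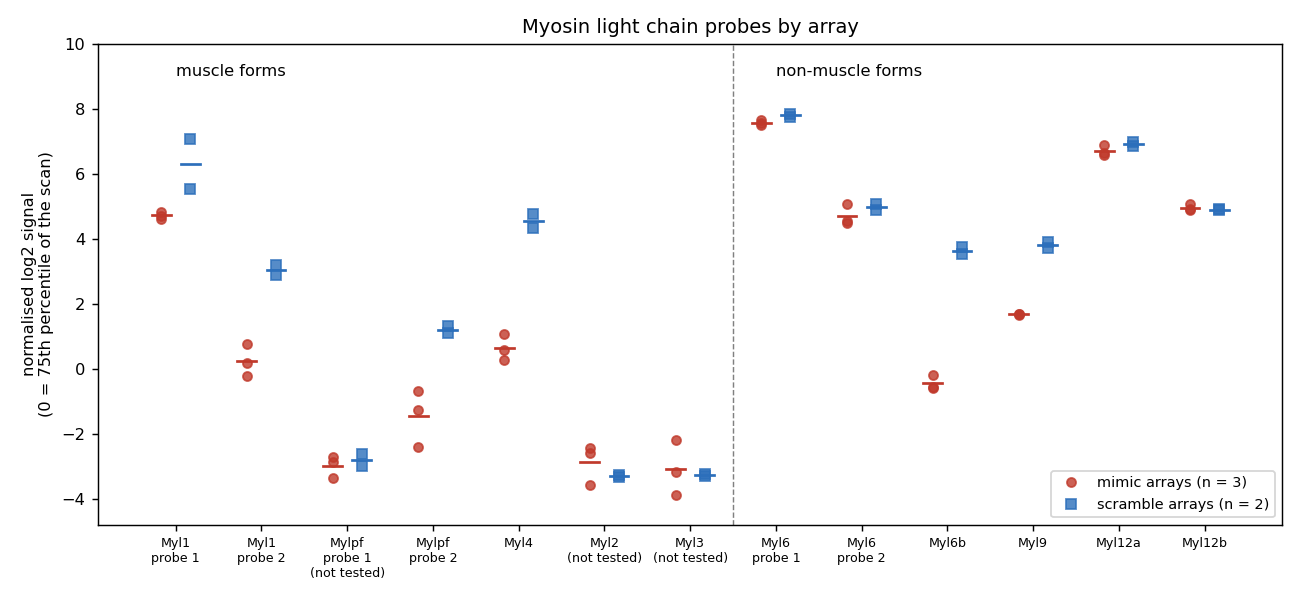
Normalised log2 signal of all 13 light chain probes (vertical axis, 0 being the 75th percentile of a scan) on each mimic array (circles, n = 3) and each scramble array (squares, n = 2), with group means as short bars. The groups lie apart for Myl1, the second probe of Mylpf, Myl4, Myl6b and Myl9, and lie within 0.3 of each other on average for Myl6, Myl12a and Myl12b.

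Among the essential chains of striated muscle, Myl4, the atrial and embryonic skeletal form, had the largest difference under both background corrections. Its probe (chr11:104448441-104448500 in the mm9 coordinates of the files, plus strand) read 1.06, 0.59 and 0.28 on the mimic arrays and 4.78 and 4.32 on the scramble arrays. Every mimic array was dimmer than either scramble array, and the probe was detected on all 10 scans. The means were 0.65 ± 0.39 (SD, n = 3) with the mimic and 4.55 ± 0.32 (SD, n = 2) with the scramble. Myl4 thus fell 15.0-fold, a log2 difference of −3.90 ± 0.28 (SE) with 95% limits of −4.55 and −3.26 (limma, adjusted p = 0.000172). Only 0.246% of tested probes had a difference as low or lower.

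Myl1, the essential light chain of fast skeletal muscle, is represented by 2 probes, and both fell. The gene gives a longer and a shorter protein through alternative first exons. The 2 probes are annotated to different transcripts of Myl1, and which transcripts each one reads was not tested. One probe (chr1:66970948-66971007, minus strand) lies on a single genomic stretch, and the other spans 4248 bases of the genome (chr1:66976853-66981100, minus strand), so that it reads across spliced exons. The sequence of this second probe is shown because it can match spliced transcript along its whole length but not unspliced RNA.
Myl1 probe 2: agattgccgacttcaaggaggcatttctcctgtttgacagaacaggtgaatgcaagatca
On this spliced probe the mimic arrays read 0.17, −0.23 and 0.77, and the scramble arrays read 2.88 and 3.20. The groups did not overlap, and Myl1 fell 6.98-fold by this probe (log2 difference −2.80 ± 0.30 SE, limma adjusted p = 0.00106). With a normexp background correction the difference was −1.91 (adjusted p = 0.00307). It was detected on 5 of 6 mimic scans and on all 4 scramble scans.

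On the first probe of Myl1 the mimic arrays read 4.63, 4.84 and 4.69, and the scramble arrays read 7.07 and 5.53. The mimic arrays lay within 0.22 of each other, while the scramble arrays were 1.54 apart, with scramble array 1 far brighter. The 2 scans of an array differed by at most 0.36 on this probe, so both scan days show the same split. By this probe Myl1 fell 2.99-fold (log2 difference −1.58 ± 0.40 SE, 95% limits −2.51 and −0.65, limma adjusted p = 0.0496). That call was lost in 8 of 19 alternatives, among them either scan day alone (adjusted p = 0.0564 and 0.0551) and the fits without any 1 mimic array. Its size rests on the scramble arrays: it was −0.81 without scramble array 1 and −2.35 without scramble array 2. Either fit holds a single scramble array, so neither measures the scramble spread. On the spliced probe the scramble arrays had the opposite order and were 0.31 apart. The difference between both probes within an array averaged −4.48 ± 0.57 (SD, n = 3) on mimic arrays and −3.26 ± 1.31 (SD, n = 2) on scramble arrays. The ranges overlapped. The exact permutation test (two-sided, p = 0.4) cannot, in the form used here, go below 0.2 with 3 arrays against 2. It does not tell whether the probes differed.

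**Figure D2:**
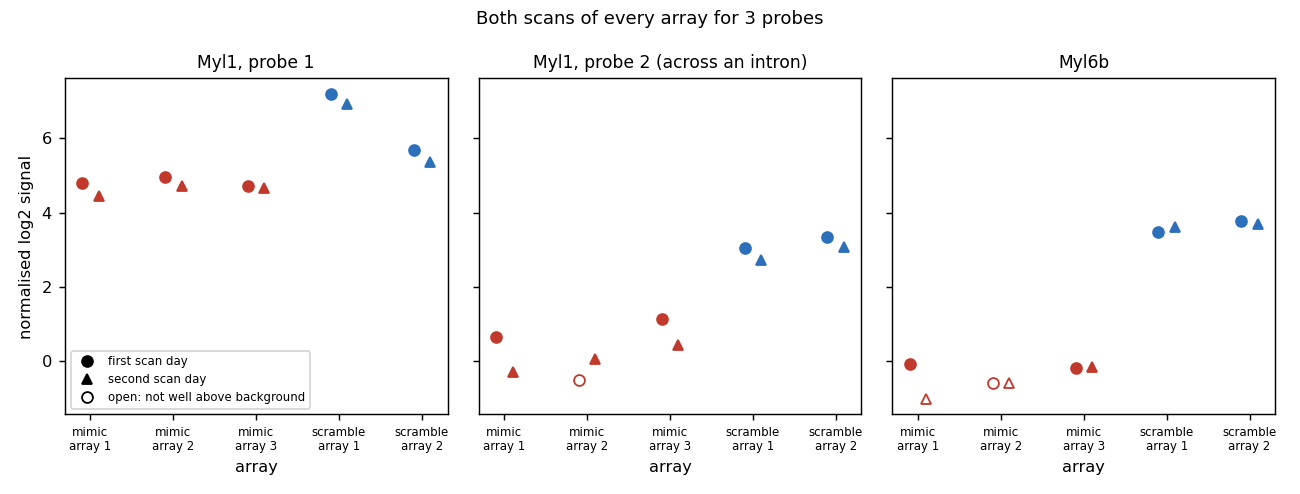
Normalised log2 signal (vertical axis) of both probes of Myl1 and the probe of Myl6b on each of the 10 scans, by array (horizontal axis), with circles for the first scan day and triangles for the second. Open symbols are scans without detection. For the first Myl1 probe both scans of scramble array 1 lie above both scans of scramble array 2, a gap that the other panels do not show.

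Mylpf, the regulatory light chain of fast skeletal muscle, also has 2 probes, of which only the second gave signal. That probe (chr7:134355191-134355250, plus strand) read −1.26, −0.69 and −2.41 on the mimic arrays and 1.10 and 1.31 on the scramble arrays. The groups did not overlap, and the mimic arrays were the more scattered, with an SD of 0.88 (n = 3) against 0.14 (n = 2) in the scramble. Mylpf fell 6.31-fold (log2 difference −2.66 ± 0.45 SE, limma adjusted p = 0.00999). The probe was detected on 2 of 6 mimic scans and 4 of 4 scramble scans. The difference was −1.68 with normexp background (adjusted p = 0.0106), and without scramble array 2, which leaves a single scramble array, the call was lost (−2.56, adjusted p = 0.0615). The other Mylpf probe, designed to a predicted transcript at chr7:134352835-134352894, averaged −2.99 ± 0.34 (SD, n = 3) on mimic arrays and −2.81 ± 0.28 (SD, n = 2) on scramble arrays.

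Myl2 and Myl3, the regulatory and essential chains of the heart ventricle and slow skeletal muscle, gave no measurable signal in either group. The Myl2 probe (chr5:122556732-122556791) averaged −2.87 ± 0.62 (SD, n = 3) in the mimic and −3.30 ± 0.06 (SD, n = 2) in the scramble. The Myl3 probe (chr9:110672238-110672297) averaged −3.09 ± 0.85 (SD, n = 3) in the mimic and −3.27 ± 0.03 (SD, n = 2) in the scramble. At this brightness the values are those of background, and a difference was not detectable. Of 6 heart muscle markers, Nppa, Myh6 and Tnni3 were detected on no scan, and Tnnt2 fell. Nppb, detected on no scramble scan, was at least 1.61-fold higher with the mimic. It passed the filter only through its mimic scans, so that its call supports nothing further. The summed linear signal of the 6 heart markers, in units of the 75th percentile, was 2.40 to 2.62 on mimic arrays and 19.6 to 20.1 on scramble arrays. On scramble arrays Tnnt2 averaged 4.25 and every other heart marker −2.21 or lower. The scramble sum is therefore nearly all Tnnt2 and does not show a fall of the list as a set.

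Within the forms listed as non-muscle, Myl6b fell by about as much as Myl4. Myl6b encodes an essential chain found in slow skeletal muscle as well as in non-muscle tissue. Its probe (chr10:127931214-127931273, minus strand) read −0.56, −0.60 and −0.19 on the mimic arrays and 3.54 and 3.73 on the scramble arrays. No array of one group came near the other group. Myl6b fell 16.9-fold (log2 difference −4.08 ± 0.22 SE, 95% limits −4.58 and −3.58, limma adjusted p = 5.85e-05), and 0.178% of tested probes were as low or lower. It was detected on 3 of 6 mimic scans and 4 of 4 scramble scans, and with normexp background the difference was −3.04 (adjusted p = 4.07e-05), against −3.52 for Myl4.

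Myl6, the essential chain of smooth muscle and non-muscle myosin, is the genomic neighbour of Myl6b on the same strand, with a gap of 1909 bases between their nearest probes. It has 2 probes, one of which spans more of the genome than its own length (chr10:127929163-127929304, minus strand) and so reads across a splice junction. It is shown as the counterpart of the spliced Myl1 probe.
Myl6 probe 2: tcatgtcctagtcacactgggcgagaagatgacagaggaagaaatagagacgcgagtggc
The other Myl6 probe (chr10:127927918-127927977) read 7.50, 7.67 and 7.57 on the mimic arrays and 7.75 and 7.85 on the scramble arrays. All mimic arrays were slightly dimmer, yet the log2 difference of −0.22 ± 0.19 (SE) did not pass the test (limma adjusted p = 0.510). Its 95% limits of −0.65 and 0.22 leave room for a fall of at most 1.57-fold. On the spliced probe the groups overlapped, with 4.54, 4.49 and 5.08 on mimic arrays and 4.87 and 5.08 on scramble arrays (log2 difference −0.27 ± 0.24 SE, limma adjusted p = 0.526). One unnamed probe shares a run of at least 20 bases with the brighter Myl6 probe, so its signal may not be specific to Myl6.

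The neighbours were also compared within each array. Myl6b minus the brighter probe of Myl6 averaged −8.03 ± 0.26 (SD, n = 3) on mimic arrays and −4.16 ± 0.07 (SD, n = 2) on scramble arrays, a change of −3.86. The groups did not overlap. The exact permutation test gave p = 0.2 (two-sided), the smallest p that the form used here can give with 3 arrays against 2. Adjusted over the 4 probe pairs compared, that p was 0.267. These within-array values describe unequal change of both probes on these arrays, which a test with so few arrays cannot establish. They do not show that Myl6 was constant.

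**Figure D3:**
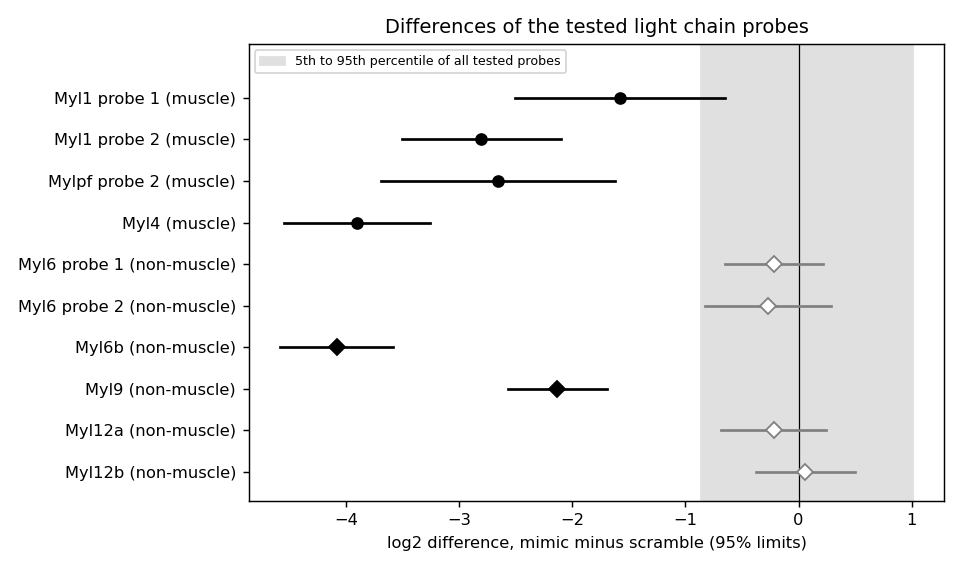
Log2 difference, mimic minus scramble, of the 10 tested light chain probes with 95% limits from limma (circles for muscle forms, diamonds for non-muscle forms; filled where the adjusted p is below 0.05). The grey band holds the 5th to 95th percentile of all 17455 tested probes, from −0.86 to 1.01, and the 6 filled points lie to its left.

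Among the regulatory chains outside striated muscle, Myl9 fell and Myl12a and Myl12b did not pass the test. Myl9 is the regulatory light chain of smooth muscle and is also present in other contractile cells. Its probe (chr2:156607301-156607360, plus strand) read 1.67, 1.69 and 1.65 on the mimic arrays and 3.90 and 3.70 on the scramble arrays. The mimic arrays were within 0.04 of each other and all lay below both scramble arrays. Myl9 fell 4.38-fold (log2 difference −2.13 ± 0.19 SE, 95% limits −2.57 and −1.69, limma adjusted p = 0.000423), with −2.08 and −2.18 on the separate scan days.

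Myl12a and Myl12b encode nearly identical non-muscle regulatory chains and lie next to each other, with 20182 bases between their probes. The Myl12a probe (chr17:71343750-71343809, minus strand) read 6.59, 6.63 and 6.89 on mimic arrays and 6.86 and 6.99 on scramble arrays. The Myl12b probe (chr17:71323508-71323567, minus strand) read 4.89, 5.08 and 4.92 on mimic arrays and 4.88 and 4.92 on scramble arrays. The groups overlapped for both genes. The log2 differences were −0.22 ± 0.20 (SE, adjusted p = 0.537) for Myl12a and 0.06 ± 0.19 (SE, adjusted p = 0.878) for Myl12b in the limma fit, and the sign of Myl12b turned with quantile normalization, with another 75th percentile, with the deposited value table and without mimic array 2. Their 95% limits allow falls of at most 1.60-fold and 1.30-fold. The probes of both genes share no run of 20 bases with each other, but that of Myl12a shares one with an unnamed probe. Within arrays, Myl9 minus Myl12b averaged −3.29 ± 0.09 (SD, n = 3) with the mimic and −1.10 ± 0.17 (SD, n = 2) with the scramble. The exact permutation test, in the form used here, gave p = 0.2, its smallest possible value.

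Smooth muscle and differentiated muscle markers were read beside these falls. Of 6 smooth muscle and myofibroblast markers, 3 were tested, and 3.72% of all tested genes were called lower. Acta2 fell 5.47-fold and Tagln 3.28-fold (limma, adjusted p = 0.000272 and 0.00480). Smtn, the other tested marker, was detected on every scan and did not pass the test (log2 difference 0.16 ± 0.21 SE, limma adjusted p = 0.686). Cnn1, Myh11 and Lmod1 were detected on no scan, and the summed linear signal of the list, in units of the 75th percentile, was 48.1 to 55.8 on mimic arrays and 163 to 171 on scramble arrays. Of 6 markers of differentiated muscle 5 fell, where 3.72% of all tested genes did, led by Myog (135-fold) and Actc1 (41.5-fold). Their list had a summed signal of 26.7 to 31.6 on mimic arrays and 405 to 418 on scramble arrays. Ckm, the remaining marker, was detected on every scan and did not pass the test (log2 difference −0.60 ± 0.25 SE, limma adjusted p = 0.188). With normexp background the log2 difference of Myog was −5.98, against −7.08. The 4 tested myoblast markers fell too, with sums of 131 to 139 on mimic arrays and 261 to 312 on scramble arrays, but the call was lost for Itga7 in 9 and for Des in 6 of 19 alternatives. Myf5, another myoblast marker, was not tested and averaged −1.52 ± 0.30 (SD, n = 3) on mimic arrays and −2.09 ± 0.24 (SD, n = 2) on scramble arrays, with detection on 3 of 6 mimic scans and 0 of 4 scramble scans. None of 4 tested fibroblast markers passed the test, and their list summed to 283 to 309 on mimic arrays and 216 to 273 on scramble arrays. Of 6 leukocyte markers Ptprc, Lyz2 and Tyrobp were detected on no scan, Csf1r and Itgam were detected on every scan and did not pass the test, and Cd68 rose 28.5-fold, with sums of 41.2 to 44.3 on mimic arrays and 15.0 to 15.3 on scramble arrays. The proliferation markers summed to 26.6 to 30.7 on mimic arrays and 16.6 to 17.8 on scramble arrays, and of these 4 Ccnb1 rose 1.78-fold (limma adjusted p = 0.0486), a call lost in 11 of 19 alternatives. The part of any of these in the light chain differences was not tested.

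Light chains bind heavy chains, and of 14 myosin II heavy chain genes 6 were tested, with 2 lower, none higher and a median log2 difference of −0.33. Of all tested genes 3.72% were called lower, 5.43% higher and 9.15% either way, with a median of 0.09. Myh3, the embryonic skeletal heavy chain, read 1.35, 1.93 and 1.46 on mimic arrays and 7.01 and 6.27 on scramble arrays. It fell 33.4-fold (log2 difference −5.06 ± 0.29 SE, limma adjusted p = 7.54e-05). Myh1, an adult fast skeletal heavy chain, was detected on no mimic scan and was at least 7.58-fold lower with the mimic under the main background correction. It passed the filter only through its 4 scramble scans, so that its call, one of the 2, supports nothing further, and its log2 difference with normexp background was −2.26, a smaller fold than that bound. Both groups lay apart for these genes.

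The other tested heavy chains did not pass the test. Myh9, the main non-muscle heavy chain, had a log2 difference of 0.39 ± 0.23 (SE, limma adjusted p = 0.325) and Myh8, the perinatal skeletal form, had −0.48 ± 0.21 (SE, adjusted p = 0.197). Myh4, the fastest skeletal form, had 0.08 ± 0.30 (SE, adjusted p = 0.893), with a sign that turned under another 75th percentile, without mimic array 2 and without scramble array 2. Adult, embryonic and perinatal Myh genes are close paralogs, so a probe can read more than its own transcript. The other light chains on the array, Myl7 and Myl10, were detected on no scan.

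Of 21 genes of the light chain kinases, phosphatase and their regulators, 15 were tested and none passed (limma), where 9.15% of all tested genes did. The median log2 difference of those 15 was 0.18, against 0.09 over all tested genes. Among the Mylk kinase genes only Mylk2 was tested (0.08 ± 0.38 SE, limma adjusted p = 0.921). By their brightest probes, Mylk was detected on 1 of 6 mimic scans and 0 of 4 scramble scans, and Mylk3 and Mylk4 on no scan. The count says nothing about these untested genes. Calm2, which encodes a calcium sensor that activates myosin light chain kinase, had 0.74 ± 0.30 (SE, adjusted p = 0.170). Without scramble array 1 it had 1.25 with an adjusted p of 0.00839, in a fit where the spread comes from the mimic arrays alone. Rhoa, a small GTPase of the cytoskeleton, had 0.18 ± 0.21 (SE, adjusted p = 0.618), and −0.02 without scramble array 2. Of the chaperones that fold myosin heads none of 4 tested genes passed, with a median of −0.11. Counts of 0 in lists this short are near the share over all genes. Unc45a had −0.14 ± 0.24, Hsp90aa1 0.40 ± 0.25 and Hsp90ab1 −0.07 ± 0.21 (SE, adjusted p of 0.745, 0.365 and 0.872), and the sign of Hsp90ab1 turned without mimic array 1 and without scramble array 1.

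**Figure D4:**
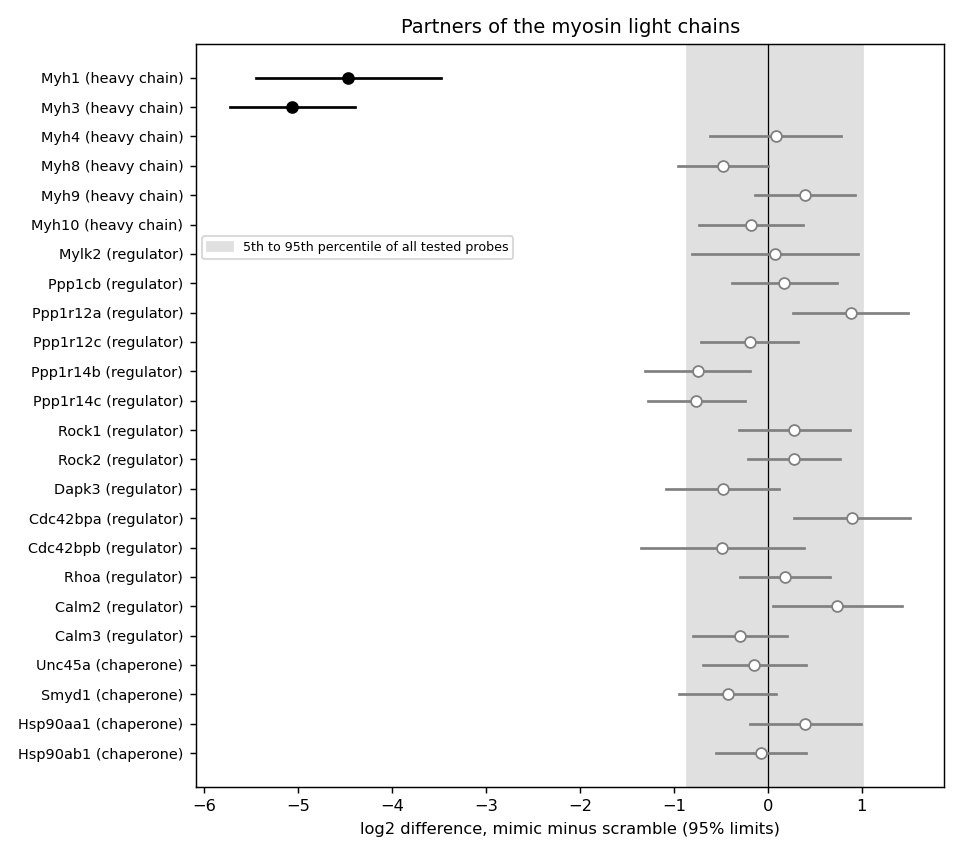
Log2 difference, mimic minus scramble, of tested heavy chain, regulator and chaperone genes with 95% limits from limma, filled where the adjusted p is below 0.05. Myh1 and Myh3 are the filled points, far left of the grey band that holds the 5th to 95th percentile of all tested probes; the fitted value of Myh1 is not a bound, since its mimic arrays were at background.

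The profiles of the light chains over the 5 arrays were also set against those of other genes, by the root mean square distance between centred log2 values. Myl6b lay closest to Tnnt2, Frmpd1 and Chrng (distances of 0.09, 0.09 and 0.19), and Myl4 to Slc2a6, Rbm24 and Fndc5 (0.14, 0.15 and 0.22). Mylpf lay closest to Ryr1, Cacna1s and Ank1 (0.21, 0.26 and 0.37), and Myl9 to Rarres2, Tmem176b and Klhl41 (0.08, 0.08 and 0.08). The spliced Myl1 probe had Iffo1, Ptgis and Olfml3 as its nearest genes (0.22, 0.25 and 0.25), whereas the other had Cdk5r1, Sparcl1 and Sync (0.19, 0.21 and 0.23). The 2 probes of Myl1 were 0.91 apart, farther than Myl6b from Myl4 (0.43). The nearest genes of Myl6, Myl12a and Myl12b lay within 0.08 and had differences that did not pass the test (limma). These distances describe 5 arrays of 10439 named genes and carry no test.

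Promoter windows of RefSeq (build GRCm38.p6, 250 bases before to 50 after a gene's start) were found for all 10 genes, 12 windows in all. They were searched on both strands for the E-box CANNTG, to which myogenic factors bind, its form CAGCTG, the CArG box of serum response factor, and the MEF2 motif. CANNTG occurred in 10 of the 12 windows (72.3% of all 32851 windows). CAGCTG, every copy of which is also a CANNTG, occurred in 5 (16.3% of all windows), those of Myl1, Mylpf, Myl12a and both of Myl2. The CArG box occurred in 3 (1.63% of all windows), those of Myl3 and Myl9 and one of the 2 of Myl6. No window held the MEF2 motif (3.19% of all windows), and that of Myl4 held none of the motifs. CAGCTG and the CArG box were therefore present in windows of genes that fell and of genes that did not pass the test. A match is not evidence of binding. The windows of Mylpf and Myl9, which fell, and of Myl12a, which did not pass the test, are shown with CAGCTG and the CArG box in capitals. CAGCTG starts 51 bases before the start of Mylpf and 104 before that of Myl12a, and the CArG box starts 161 bases before that of Myl9.
Mylpf promoter (chr7:127211358-127211657, plus strand): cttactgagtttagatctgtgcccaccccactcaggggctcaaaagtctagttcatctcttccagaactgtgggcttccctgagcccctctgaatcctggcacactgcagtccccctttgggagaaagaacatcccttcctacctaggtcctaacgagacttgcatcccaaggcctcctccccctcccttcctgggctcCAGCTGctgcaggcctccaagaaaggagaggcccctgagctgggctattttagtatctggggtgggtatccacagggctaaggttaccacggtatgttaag
Myl9 promoter (chr2:156775214-156775513, plus strand): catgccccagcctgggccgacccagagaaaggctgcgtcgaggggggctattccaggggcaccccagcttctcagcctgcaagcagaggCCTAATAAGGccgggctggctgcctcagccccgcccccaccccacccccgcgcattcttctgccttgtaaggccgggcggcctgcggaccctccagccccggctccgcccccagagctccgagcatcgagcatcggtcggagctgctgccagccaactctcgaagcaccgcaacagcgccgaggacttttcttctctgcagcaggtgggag
Myl12a promoter (chr17:71002484-71002783, minus strand): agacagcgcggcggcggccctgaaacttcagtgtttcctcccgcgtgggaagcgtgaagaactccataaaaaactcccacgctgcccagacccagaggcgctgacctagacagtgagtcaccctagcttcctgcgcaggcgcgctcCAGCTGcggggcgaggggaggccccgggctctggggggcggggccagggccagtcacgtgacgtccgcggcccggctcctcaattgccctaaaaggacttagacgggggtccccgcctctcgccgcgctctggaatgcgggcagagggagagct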

How the data were processed

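RNA of transfected C2C12 cells (150 ng) was labelled with the dye Cy3 for 1-colour Agilent arrays of 62976 spots, per the labels' protocols. The deposited scanner files hold spot intensities on a linear scale, corrected for background and spatial trend with Agilent's Feature Extraction (version 12.0.0.7 per the file headers, but 10.7.3.1 per the submitters' processing notes). The deposited value table holds processed intensities with a between-array step not given in the sources used here. Its columns have medians of 176 to 354, and it was used only as an alternative.

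From these, log2 signals were scaled to each scan's 75th percentile over non-control spots, outlier spots were dropped, and spots of a probe and scans of a position were averaged. Probes well above background on at least 4 of 10 scans were fitted with limma 3.58.1 (lmFit, then eBayes; R 4.3.3) and adjusted by Benjamini-Hochberg (threshold 0.05). Limits are at 95%. The design text calls the transfections independent, but which of them lie on the 5 positions is not stated, so p-values measure the spread between 5 arrays, which may be technical. The number of arrays limits the precision. A gene of a list was represented by its brightest tested probe. Bounds replace folds where no scan of a group was well above background: they divide the bright mean by a dim mean in which each array counts with its own probe signal or, if that is lower, with its dimmest detected probe. Of the array's probes, 28026 were named by accession, 3418 by symbol and 295 by synonym in RefSeq GRCm38.p6 tables, and 23942 kept the file's name. Coordinates of probes are mm9, those of promoters GRCm38.p6. A gene of the regulator list is counted but not reported here. The other named genes are all members, up to 4 called and 3 bright uncalled genes of each partner list, and the 3 nearest profiles. Which marker genes to name was chosen after their values were seen, and so were the Mylk genes. Members and lists were chosen with earlier results of these data known. The fit was tested on simulated data.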

Additional observations from a re-analysis of the deposited data

How the results depend on the processing

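Of 185 values of light chain probes under the alternatives tried, 172 kept direction and side of the threshold, 9 lost the call and 4 changed sign. The lost calls were 8 for the first Myl1 probe and 1 for Mylpf, and the changed signs were those of Myl12b, with −0.054 under the 75th percentile of probes above background on all 10 scans, −0.055 under quantile normalization, −0.057 in the deposited value table and −0.00011 to 0.10 when 1 array was left out. Without 1 array, Myh4 ranged from −0.36 to 0.53, Rhoa from −0.024 to 0.39 and Hsp90ab1 from −0.16 to 0.037, and Myh4 was −0.030 under that other percentile. The same percentile moved the median of all tested probes to −0.053, against 0.060, a shift that leaves the falls of the light chains in place. The median was −0.12 without a filter and −0.012 in the value table.

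In all, 1594 probes were called. Scaling to the median gave 994, no filter 579, the deposited values 705, all 10 samples as replicates 5266, and leaving out 1 array 669 to 4518, the highest without scramble array 1. Fits without a scramble array assume that the lone one varies like the mimic arrays. With scaling to the median every light chain probe had the same SE of 0.418, so the calls of that fit do not reflect each probe's own spread. Among probes above background on all 10 scans, 2 muscle and 1 non-muscle light chain probes were called lower, because the second probes of Myl1 and Mylpf and that of Myl6b were no longer tested. Partner genes called numbered 2, but 7 with 10 replicates, 5 with scan date as a block and arrays as a random block, and 2 to 8 without 1 array, the highest without scramble array 1. The replicate numbers of the labels were not taken as pairs: same-numbered deviations correlated at −0.28 to 0.17, and for 0 of 4 scramble scans was the same-numbered mimic scan the most alike. With the replicate block on 10 samples 2887 probes and 6 partner genes were called, with the same 4 and 2 light chain probes lower. Other causes of these changes were not tested. Signal near background limits Myl2, Myl3, Mylpf and Myl6b.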

Other observations

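Partners of the sarcomeric light chains that missed the filter were also read, chosen after their values were seen. Myh7, the slow skeletal and ventricular heavy chain, averaged −3.31 ± 0.41 (SD, n = 3) on mimic arrays and 0.03 ± 0.65 (SD, n = 2) on scramble arrays, and was detected on 0 of 6 mimic scans and 3 of 4 scramble scans. Unc45b, the striated muscle myosin chaperone, averaged −2.82 ± 0.63 (SD, n = 3) on mimic arrays and −0.28 ± 0.65 (SD, n = 2) on scramble arrays, with the same scan counts. Neither was tested, because each was detected on fewer than 4 scans.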
